A study of Melianthus elongatus with 11 samples.

Results

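Libraries of 2 codes from Melianthus minor (filed under the name Melianthus elongatus), a shrub whose nectar is black, were compared: the code 0 libraries 0-A and 0-B, and the code L libraries L-A, L-B and L-C. They are 5 of the 11 libraries of a study of leaves and of nectaries, the organs that release nectar, from arboretum plants kept outdoors. The leading character of each library code defined its group, because the filed tissue and stage cross the codes. Libraries 0-A and 0-B are filed as mature leaf, and the code L libraries as postsecretory nectary. Of the other 6 libraries, 1-A is filed as mature leaf, 1-B and 1-C as presecretory nectary, and 2-A, 2-B and 2-C as secretory nectary, though the title of 2-A says presecretory. No treatment or genetic change is stated for any of the plants. The sources used here do not say what a code means, nor that libraries of a code are from separate plants. The p-values and standard errors therefore measure only how libraries spread within codes, which may be technical. The fit held all 11 libraries, so the spread within codes 1 and 2 enters them as well.

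Green leaf cells express the photosystems, which capture light, and the Calvin cycle, which fixes carbon dioxide with the enzyme Rubisco. Floral organs and nectaries are specified by MADS-box transcription factors and, in Arabidopsis, nectaries need CRC (CRABS CLAW), a YABBY transcription factor. Nectar sugar comes from sucrose or starch through invertases, sucrose synthases and the sucrose exporter SWEET9. The submitters' title likens the black nectar to iron-gall ink, which is dark because iron binds derivatives of gallic acid, and gallic acid branches from the shikimate pathway. These genes and their neighbours in metabolism were followed here in both codes.

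Each library was 1 column of normalised read counts, as the authors call them, for 68651 assembled contigs. Contigs carry the name of the Arabidopsis gene closest to them, and the contig's own number (Mm734, for example) is given where a single contig is meant. Where a gene is given without a contig number, the value is the sum over all contigs of that locus. kallisto divides reads among similar contigs, so the split between contigs of a locus is uncertain. Column totals were 942092 and 1024523 in code 0 and 642324, 631454 and 916467 in code L. The depth in reads is unknown. A filter for 10 or more in 2 or more of the 11 libraries kept 26053 contigs. Across these, Pearson's r of log2 values was 0.945 between the code 0 libraries, 0.904 to 0.922 within code L and 0.348 to 0.447 between the codes. Contigs are not independent replicates, so these coefficients carry no test.

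The filed labels were checked against markers of green leaf and of floral and nectary tissue. All 50 loci of the photosystem and light harvesting list had a contig, and none was at 0 in either code. Sums of lists, here and below, cover kept contigs only. The 187 kept photosystem contigs, from 48 loci, summed to 8260 and 9008 in 0-A and 0-B, filed as leaf. In the code L libraries, filed as nectary, they summed to 71703, 74988 and 123410. These sums were 0.877% and 0.879% of the column totals in code 0 and 11.2%, 11.9% and 13.5% in code L. The 100 kept contigs of nectary and flower regulators summed to 6094 and 7477 in the code 0 libraries and 465, 392 and 584 in code L. Of the 29 regulator loci with a contig, 6 were under 1 in all 3 code L libraries. The marker values of both codes therefore go against the filed labels, and the codes are given no tissue or stage here. In bulk RNA, fewer cells of a type and less RNA per cell cannot be told apart.

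**Figure D1:**
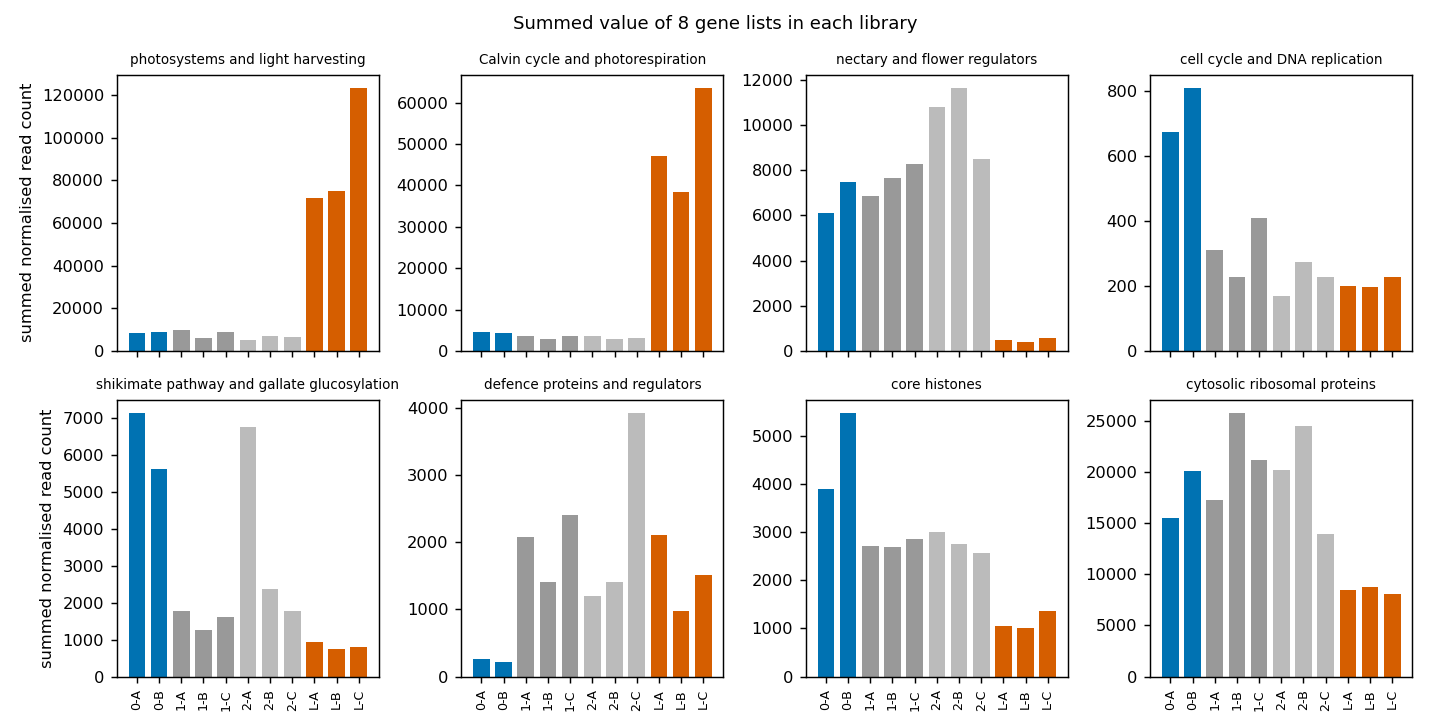
Summed normalised read count (vertical axis) of 8 gene lists in each of the 11 libraries (horizontal axis), with code 0 in blue, code L in orange and codes 1 and 2 in grey. Photosystem sums are highest in the 3 code L libraries, and the regulator sums of code L (392 to 584) are the lowest of the 11 libraries.

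The comparison asks which transcripts separate codes 0 and L. A contig was called when limma's adjusted p was under 0.05 and the codes differed by 1 or more, up or down, on log2(value + 1). As deposited, 12875 contigs were called higher in code 0 (49.4% of those tested) and 3478 lower (13.3%), or 62.8% in either direction. The median log2 difference of all kept contigs was 1.08, so code 0 values lay above code L values across most of the table. Rescaling the columns by the median ratio (factors of 1.22 and 1.3 for code 0 and 0.526, 0.524 and 0.772 for code L) moved that median to 0.14. After it, 4752 contigs were called higher (18.2%) and 5450 lower (20.9%), or 39.2% in all, and the share of calls that were higher went from 78.7% to 46.6%. On both scales, 4752 contigs were called higher (18.2%) and 3473 lower (13.3%), 31.6% in all. The calls higher in code 0 on both scales hold 30.1% of the code 0 total and 4.00% of the code L total. Calls lower on both scales hold 4.33% of the code 0 total and 46.7% of the code L total.

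Summed per locus, 12123 loci were tested. As deposited, 5838 were called higher in code 0 (48.2%) and 1598 lower (13.2%), with a median of 0.98. On both scales, 1427 were called higher (11.8%) and 1598 lower (13.2%), and the median after rescaling was -0.02. Below, differences are code 0 minus code L on log2(value + 1) of the deposited values, with the standard error, and adjusted p-values are limma's with Benjamini-Hochberg adjustment. A gene said to be higher or lower was called on both scales unless a lost call is stated, and its code 0 and code L values did not overlap. The ranges of the groups did not overlap in 80.3% of all kept contigs.

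**Figure D2:**
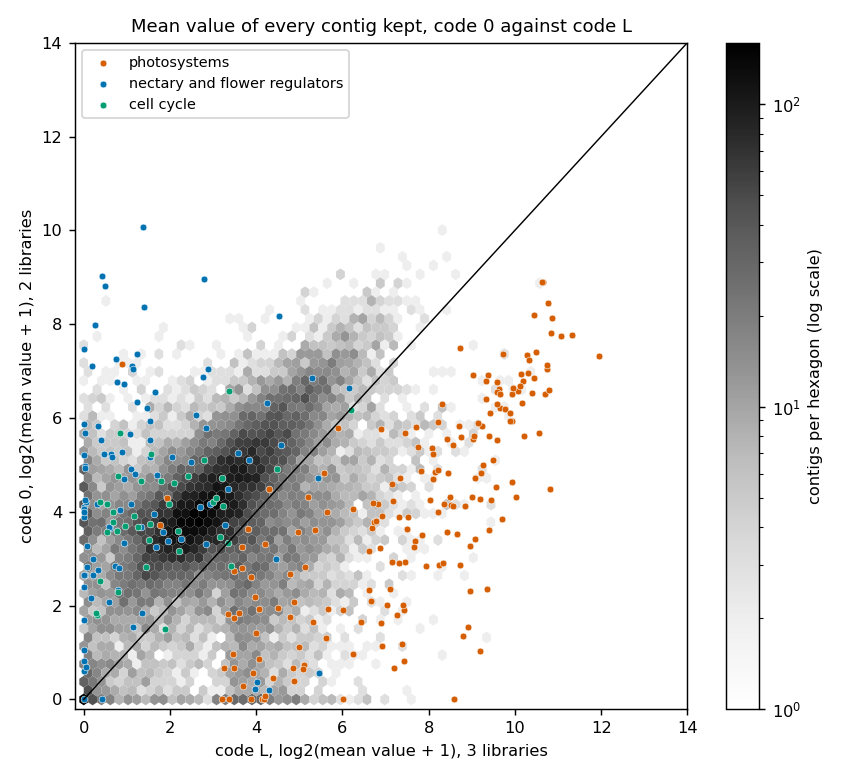
Mean value of each kept contig in the 3 code L libraries (horizontal axis) and the 2 code 0 libraries (vertical axis), as log2(mean + 1), with the density of contigs in grey, photosystem contigs in orange, nectary and flower regulators in blue, cell cycle contigs in green and the line of equal values in black. Most photosystem contigs lie below the line, and most regulator and cell cycle contigs lie above it.

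The contigs with the furthest differences in the whole table were a carbonic anhydrase on the code L side and CRC on the code 0 side. Contig Mm322422, like the chloroplast carbonic anhydrase CA1, was listed at 0.11 and 2.36 in code 0 and at 2612, 1505 and 3171 in code L, a difference of -10.23 (SE 0.45, adjusted p = 5.96e-07). Contig Mm734, like CRC, was listed at 932 and 1215 in code 0 and at 4.84, 0 and 0 in code L (difference 9.21, SE 0.81, adjusted p = 1.12e-05). Each was under 5 in every library of the low code and at 932 or more in every library of the high code.

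Beside CRC, the contigs furthest above code L were of mixed kinds. A RING/U-box protein (Mm1842, AT5G19080) stood at 1402 and 1362 in code 0 and at 3.08, 1.64 and 0.75 in code L (difference 9.02, SE 1.28). The alpha tubulin contig Mm78450, a microtubule subunit, had 445 and 408 against 0, 0 and 0.004 (8.74, SE 0.36). Contigs of 2 proteins of the lipid transfer type, Mm42146 (AT2G44290) and Mm3624 (AT5G48485), had differences of 8.95 (SE 0.99) and 8.58 (SE 1.46). All 4 were under 4 in every code L library. Others of the 10 furthest were a cation-binding protein of the plasma membrane (Mm406, AT4G20260, 8.49, SE 1.00), CWINV2, STK, AG and TIP1;3, which are described with their groups.

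On the code L side, 7 of the 10 furthest contigs resembled chloroplast or photorespiration genes, and the other 3 resembled an aldolase of sugar breakdown and B-box proteins with a CCT domain. The ferredoxin reductase contig Mm228882, like FNR2, was listed at 0 in both code 0 libraries and at 401, 241 and 502 in code L. Over all 11 of its contigs, FNR2 summed to 243 and 321 in code 0 and 2602, 2074 and 3688 in code L. The glycine decarboxylase contig Mm62320, like GLDT, was also listed at 0 in both code 0 libraries and at 236, 103 and 203 in code L. A contig of petM, a small cytochrome b6f subunit (Mm291837, AT2G26500), fell by 8.16 (SE 0.45), and an aldolase contig (Mm96975, AT4G26530) fell by 7.90 (SE 0.37). The B-box contigs Mm307929 (AT1G25440) and Mm307470 (AT1G73870) were lower by 7.78 (SE 0.54) and 7.71 (SE 0.61) on the log2 scale. An exact 0 in these files can be a failed estimate, so no fold is given for the 2 contigs at 0.

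Photosystem and light harvesting genes were lower in code 0 almost as a block. Of 187 kept contigs from 48 loci, 167 were called lower, 3 higher and 17 not called as deposited, with a median of -3.40 beside 1.08 for all contigs (-4.45 beside 0.14 after rescaling). Summed per locus, 46 of 49 loci were lower on both scales. LHCB2.1, a chlorophyll-binding antenna protein of photosystem II, had 191 and 244 in code 0 and 2477, 2603 and 5079 in code L, a difference of -3.88 (SE 0.43, adjusted p = 1.63e-05). Subunit O of photosystem I, PSAO, had 154 and 182 against 2595, 4362 and 5973 (-4.60, SE 0.44, adjusted p = 6.77e-06). All 3 code L libraries stood far above both code 0 libraries in each gene, and L-C was the highest.

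PSBO1, which stabilises the water-splitting complex, had 384 and 410.2 in code 0 and 2738, 3323 and 5231 in code L (-3.19, SE 0.50, adjusted p = 1.77e-04). PSBS, which dissipates excess light energy, had 296 and 346 against 3919, 3919 and 3311 (-3.53, SE 0.33, adjusted p = 5.45e-06). Codes 1 and 2 were on the low side too, with PSBS at 113 to 156 and 66.3 to 160.4.

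Antenna loci whose symbol begins with LHCB1 showed both directions. The antenna genes LHB1B1 and LHB1B2, of the same type under another symbol, were below code L by value. LHB1B1 had 690 and 776 in code 0 and 4448, 5267 and 9398 in code L. LHB1B2 had 972 and 935 against 2841, 2339 and 4511. LHCB1.1 summed to 407 and 422 in code 0 and 1635, 1723 and 3358 in code L (-2.35, SE 0.35, adjusted p = 1.39e-04), and of its 6 kept contigs 4 were lower and 1 higher. LHCB1.2 summed to 123 and 118 against 596, 469 and 1755 (-2.70, SE 0.56), and 1 of its 2 kept contigs was lower. Contig Mm393860, the only kept contig like LHCB1.3, went the other way, with 155 and 126 in code 0 and 1.33, 0.86 and 0.322 in code L (6.30, SE 1.36, adjusted p = 0.00209). That contig was at 66.7 in 2-C and under 1 in the other libraries of codes 1 and 2. LHCB4.1 and LHCB2.3 were the photosystem loci not called.

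Calvin cycle and photorespiration genes followed the same direction, with 117 of 145 contigs lower and 8 higher as deposited (median -3.11, or -4.02 after rescaling) and 26 of 27 loci lower on both scales. CA1 summed to 4.1 and 9.48 in code 0 and 7033, 5409 and 7809 in code L, the furthest difference of any listed locus (-9.83, SE 0.34, adjusted p = 1.13e-08). Rubisco activase, RCA, had 96.3 and 145 against 5677, 4419.7 and 9128 (-5.68, SE 0.34, adjusted p = 3.61e-07), and all 19 of its kept contigs were lower. The Rubisco small subunit gene RBCS1A had 1182 and 874 against 11877, 9972 and 15730.2 (-3.60, SE 0.28, adjusted p = 1.71e-06). RBCS1A was listed at 464 to 505 in code 1 and at 379.8 to 555 in code 2, below both code 0 libraries by value, a difference not tested here.

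Phosphoribulokinase, PRK, which remakes the acceptor of carbon dioxide, had 27 and 45.3 in code 0 and 1235, 1555 and 1668 in code L (-5.36, SE 0.45, adjusted p = 2.81e-06). SHM1, the mitochondrial serine hydroxymethyltransferase of photorespiration, had 60.7 and 67 against 1414, 1143 and 2349 (-4.59, SE 0.33, adjusted p = 1.14e-06). PDTPI, a plastid triose phosphate isomerase, was the only Calvin cycle locus not called. Among RBCS1A contigs, Mm9468 differed from the rest, at 112 and 119.9 in code 0 and 35.2, 26.1 and 27.3 in code L (1.95, SE 0.36), and its call was lost after rescaling (0.89).

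Chlorophyll synthesis genes were lower at 14 of 15 loci on both scales, and 24 of 28 contigs were lower as deposited with none higher on either scale (median -2.31, or -3.30 after rescaling). GLK1, a transcription factor that switches on photosystem genes, had 16.1 and 19.3 in code 0 and 88.3, 74.7 and 190.1 in code L (-2.55, SE 0.38, adjusted p = 1.32e-04). HEMA1, which starts tetrapyrrole synthesis, fell by 2.27 (SE 0.27), and CHLH, a subunit of the enzyme that inserts magnesium, by 2.09 (SE 0.30). GSA1, a later step of tetrapyrrole synthesis, was not called.

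**Figure D3:**
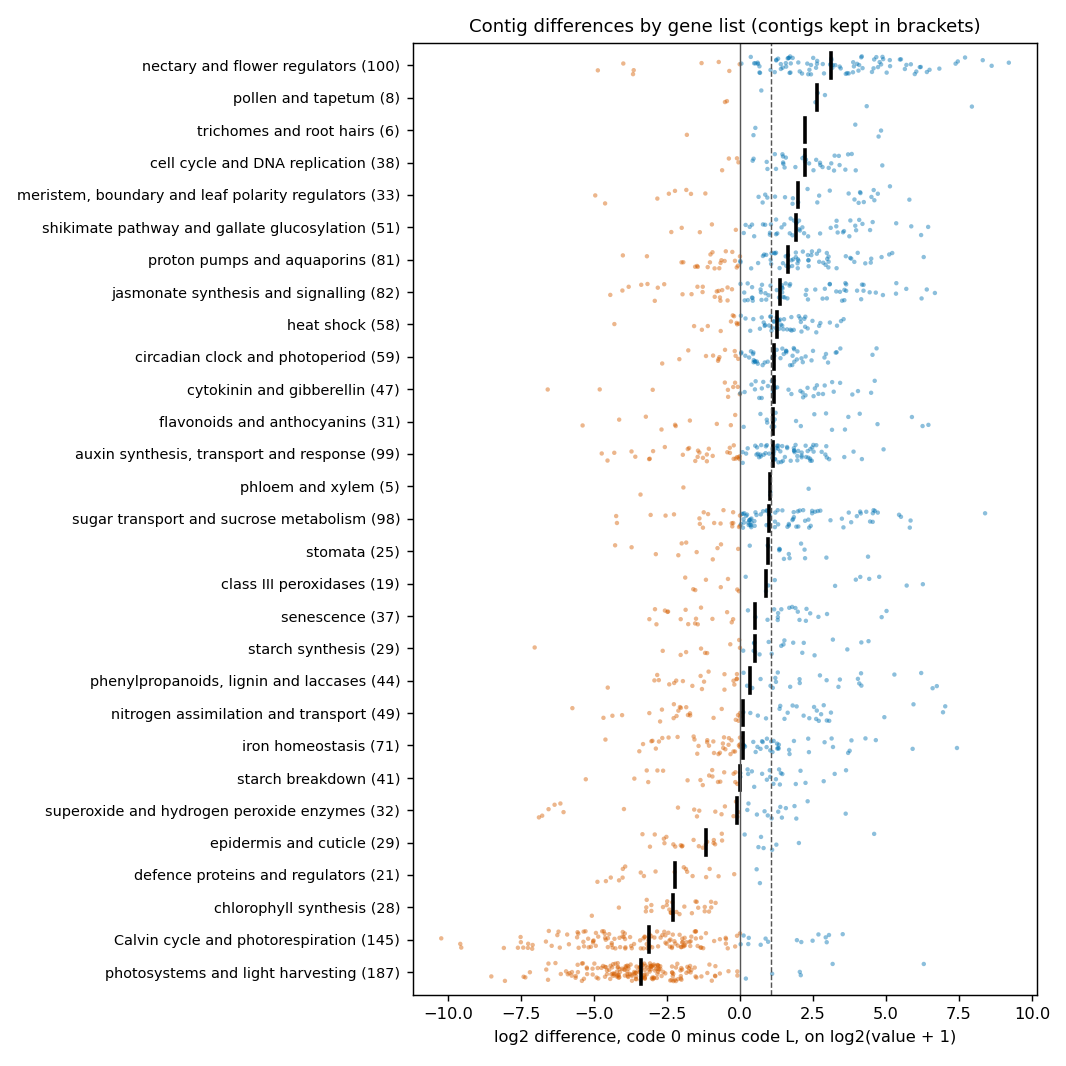
Log2 difference, code 0 minus code L, of each kept contig (points, blue above 0 and orange below) in 29 gene lists, with the list median as a black bar, 0 as a solid line and the median of all kept contigs (1.08) as a dashed line. The photosystem, Calvin cycle, chlorophyll and defence medians lie furthest below 0, and the nectary and flower regulators have the highest median (3.10).

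Nectary and flower regulators were the list furthest above code L. Of 100 kept contigs from 25 loci, 75 were higher, 4 lower and 21 not called as deposited (median 3.10, or 2.36 after rescaling). Summed per locus, 22 of 25 were higher as deposited and 15 on both scales, and 1 was lower. CRC summed to 1041 and 1351 in code 0 and 4.91, 0 and 0.001 in code L (9.36, SE 0.78, adjusted p = 2.70e-06), and 4 of its 5 kept contigs were higher. Its values in codes 1 (62 to 126) and 2 (94.9 to 498) lay between those of codes 0 and L. L-A held nearly all of the CRC value in code L, and L-B was at 0. Kept contigs of pollen and tapetum markers, 8 from 3 loci, summed to 470 and 449 in code 0 and 33, 30 and 24 in code L. Of 5 marker loci tested as sums, 4 were higher as deposited and 2 on both scales. ACOS5 overlapped, at 18.7 and 15.8 in code 0 and 11.5, 20.8 and 22.4 in code L. The part of these markers in the result was not tested.

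STK, AG and SHP1, MADS-box genes of the flower, were among those higher in code 0. STK, the MADS-box gene of ovule identity, had 411 and 667 in code 0 and 0.824, 0.171 and 0 in code L (8.67, SE 0.37, adjusted p = 6.56e-08). AG, which specifies stamens and carpels, had 598 and 742 against 2.58, 1.76 and 1.23 (7.89, SE 0.24, adjusted p = 6.63e-09). SHP1, a carpel and fruit margin gene that promotes CRC expression in Arabidopsis, had 501 and 745 against 10.3, 0.736 and 1.12 (7.46, SE 0.60). Over these 3 genes, the lowest code 0 value was 411 and the highest code L value 10.3.

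SEPALLATA genes, the partners of floral MADS-box proteins, were also higher. SEP1 had 514 and 931 in code 0 and 16.2, 4.98 and 2.68 in code L (6.58, SE 0.51), and SEP3 had 349 and 533 against 8.42, 9.48 and 11.5 (5.33, SE 0.26, adjusted p = 1.06e-07). Genes of petal and stamen identity were present in code 0 as well, with AP3 at 250.4 and 325 against 22.2, 22.5 and 19.9 (3.67, SE 0.23) and PI at 22.1 and 29.8 against 0.192, 0.246 and 0 (4.55, SE 0.73). AP3 kept a value near 20 in all 3 code L libraries, while PI was under 1 there.

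Other regulators differed in how far code 0 stood from codes 1 and 2. YAB5, a YABBY gene of the lower side of lateral organs, had 639 and 985 in code 0 and 26.9, 40.1 and 34.3 in code L (4.53, SE 0.31). MYB21, a jasmonate-responsive regulator of stamen and nectary maturation, had 668 and 127 against 44.6, 2.78 and 3.09 (5.04, SE 0.91, adjusted p = 4.65e-04), with 0-A far above 0-B. Its values were 2309 to 2967 in code 1 and 3083 to 4477 in code 2, above both code 0 libraries. ARF8, an auxin response factor of floral organs, rose by 3.95 (SE 0.32) and BOP2, a co-regulator needed for nectaries in Arabidopsis, by 4.05 (SE 0.35). The 1 regulator that was lower was BEL1, a homeodomain gene of ovule integuments, at 1.65 and 4.33 in code 0 and 101, 108 and 183 in code L (-5.08, SE 0.49, adjusted p = 7.02e-06). FUL and YAB2 were not called as deposited.

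**Figure D4:**
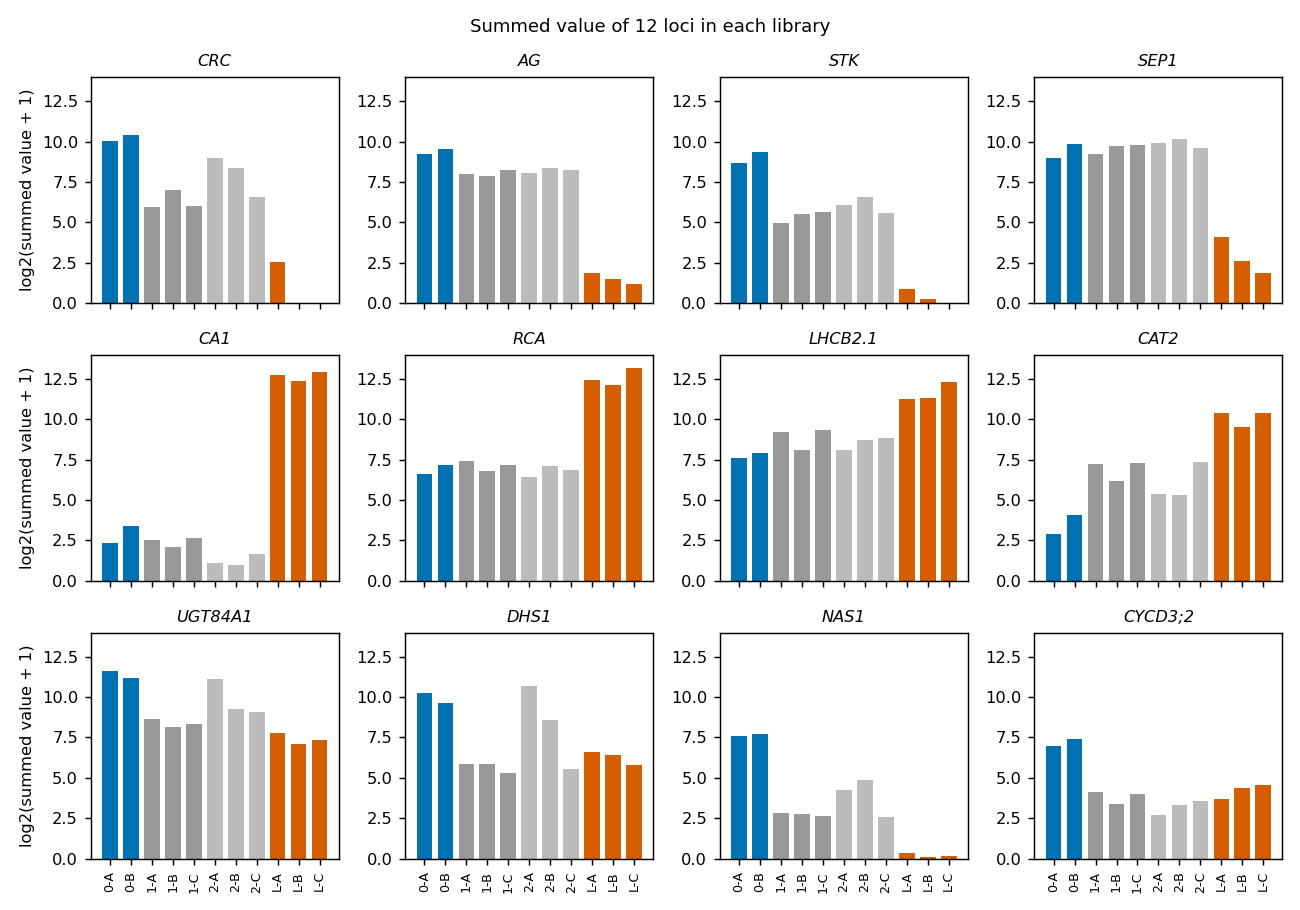
Summed value per library, as log2(value + 1), of 12 loci (panels) in the 11 libraries (horizontal axis), with code 0 in blue, code L in orange and codes 1 and 2 in grey. CRC, AG, STK and SEP1 are far lower in code L than in code 0, and CA1, RCA, LHCB2.1 and CAT2 are highest in code L. UGT84A1, DHS1, NAS1 and CYCD3;2 are higher in code 0 than in code L, the DHS1 call being lost after median ratio rescaling.

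Regulators of meristems, boundaries and leaf polarity were split. Of 33 contigs, 20 were higher and 8 lower as deposited (median 1.99, or 1.13 after rescaling), and per locus 7 of 15 were higher and 3 lower on both scales. KNAT6, a meristem and boundary homeobox gene, had 124 and 153 in code 0 and 3.72, 0.477 and 0.125 in code L (6.12, SE 0.50). LOB, which marks organ boundaries, had 84.7 and 113 against 0.942, 0 and 0.061 (6.28, SE 0.31), and AS1, a MYB regulator that keeps homeobox genes off in leaf primordia, had 352 and 457 against 21.1, 15.6 and 21.6 (4.32, SE 0.25). GRF5, a factor that prolongs cell division in leaves, had 15 and 21.4 in code 0, and all 3 code L libraries listed it at 0.

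The 3 lower members were TCP factors of the class that ends cell division in growing leaves. TCP3 had 2.99 and 5.17 in code 0 and 52.5, 75.4 and 67.9 in code L (-3.72, SE 0.34, adjusted p = 5.07e-06). TCP4 fell by 2.00 (SE 0.28) and TCP2 by 1.33 (SE 0.30).

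Cell cycle and DNA replication genes were higher in code 0. Of 38 contigs, 28 were higher and none lower as deposited (median 2.22), and 21 and 1 after rescaling (median 1.38), and per locus 20 of 24 were higher as deposited and 13 on both scales. CYCD3;2, a D-type cyclin that starts division, had 127 and 167 in code 0 and 11.7, 19.9 and 22.7 in code L (2.99, SE 0.35, adjusted p = 2.36e-05). CDKB2;2, a kinase of the transition into mitosis, had 36.2 and 49.7 against 3.29, 2.51 and 3.56 (3.41, SE 0.36), and the Aurora kinase AUR1, of the mitotic spindle, had 26 and 34.1 against 3.19, 1.26 and 1.49 (3.42, SE 0.45). Codes 1 and 2 were low for these genes as code L was, with CYCD3;2 at 9.57 to 16.1 and 5.5 to 10.8.

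TSO2, a ribonucleotide reductase subunit that makes DNA precursors, rose by 3.19 (SE 0.35), and CDC20.1, an activator of the anaphase-promoting complex, by 3.42 (SE 0.28). PCNA1, the sliding clamp of replication, was higher by 1.67 (SE 0.44) and the kinase CDKA;1 by 1.07 (SE 0.24) as deposited, and both calls were lost after rescaling. KN, E2FA, CYCD1;1 and CYCD2;1 were not called as deposited.

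Core histones, which package new DNA, moved the same way, with 55 of 66 contigs higher and 2 lower as deposited (median 2.28, or 1.27 after rescaling) and 13 of 26 loci higher on both scales. Their summed value was 3898 and 5466 in code 0 and 1046, 1001 and 1365 in code L. A histone H2A contig (Mm4771, AT5G02560) had 340.2 and 284 against 22.4, 18.1 and 29.3 (3.71, SE 0.26). Expansins, proteins that loosen cell walls during growth, were higher at 13 of 23 contigs (56.5%) and lower at 1 as deposited. After rescaling, 10 were higher and 1 lower. Their medians were 1.36 and 0.56, beside 1.08 and 0.14 for all contigs. Over all kept contigs, 49.4% were higher and 13.3% lower as deposited, and 18.2% and 20.9% after rescaling. The expansin A1 contig Mm133588 had 289.6 and 214 against 1.96, 1.32 and 1.7 (6.56, SE 0.64), and the expansin A10 contig Mm2807 had 291 and 295 against 5.95, 4.85 and 5.79 (5.50, SE 0.34). Xyloglucan endotransglucosylases, which recut wall polymers, had 7 contigs higher and 7 lower of 22 as deposited, and 5 and 8 after rescaling.

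Cytosolic ribosomal proteins depended on the scale. As deposited, 152 of 292 contigs were higher and 2 lower, with a median of 1.08, the same as all contigs. After rescaling, 22 were higher and 12 lower with a median of 0.04, and 1 of 66 loci was higher on both scales. Their share of the column total was 1.64% and 1.96% in code 0 and 1.31%, 1.38% and 0.88% in code L. Reference genes commonly used for normalisation, a list added after seeing the data, had 73 of 108 contigs higher and 2 lower as deposited, and 37 higher and 8 lower after rescaling.

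Sugar contigs were called at shares somewhat below those of all kept contigs as deposited. Of 98 contigs, 43 were higher (43.9%, beside 49.4% of all) and 8 lower (8.2%, beside 13.3% of all). Their median (0.99, or 0.14 after rescaling) was close to that of all contigs. Per locus, 8 of 30 were higher and 3 lower on both scales. CWINV2, an invertase that splits sucrose in the cell wall, had 1607 and 969 in code 0 and 42.5, 9.11 and 5.52 in code L (6.46, SE 1.32, adjusted p = 0.00103). The vacuolar invertase VIN2 had 205 and 74.8 against 0.874, 2.76 and 2.57 (5.41, SE 0.71). The sucrose synthases SUS1 and SUS4, which cleave sucrose in the cytosol, rose by 3.11 (SE 0.24) and 3.80 (SE 0.30).

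Both sucrose synthases were lower in code 0 than in code 1 by value (SUS1 881 and 941 against 2251 to 3204), a difference not tested here. SWEET9 was low in both codes, at 1.07 and 2.86 in code 0 and 37.8, 0.806 and 0.171 in code L, and was not called (-0.62, SE 1.08, adjusted p = 0.614), nor was any of its 5 kept contigs. Codes 1 and 2 held 2037 to 3109 and 2766 to 5292. L-A stood above the other code L libraries and above both code 0 libraries in SWEET9.

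Further sugar transporters and a sucrose synthesis gene were called in both directions. SWEET11, which exports sucrose for phloem loading in Arabidopsis leaves, had 2.57 and 2.76 in code 0 and 58.3, 55.5 and 92.5 in code L (-4.21, SE 0.68, adjusted p = 2.05e-04). SPS4F, a sucrose phosphate synthase, fell by 2.97 (SE 0.38), while SWEET1, a glucose transporter, rose by 4.43 (SE 0.39). SWEET11 and SPS4F were thus on the side of the photosystem genes and SWEET1 on that of the regulators.

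Starch genes showed no common direction on both scales, with 11 of 29 synthesis contigs higher and 6 lower, and 13 of 41 breakdown contigs higher and 8 lower as deposited. After rescaling, 7 were higher and 9 lower in synthesis, and 3 higher and 18 lower in breakdown. The list medians were 0.52 and 0.01 as deposited and -0.26 and -1.05 after rescaling. Large subunits of ADP-glucose pyrophosphorylase, the first enzyme of starch synthesis, split: APL1 had 11.8 and 17 in code 0 and 376, 365 and 595 in code L (-4.84, SE 0.32), and APL4 had 69.9 and 85 against 2.63, 7.07 and 4.72 (3.82, SE 0.47). BAM3, the chloroplast amylase that breaks starch down at night, had 0.119 and 1.67 against 69.8, 48.7 and 82.1 (-5.26, SE 0.40).

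Genes of the shikimate pathway and of gallate glucosylation were higher in part. Of 51 contigs, 33 were higher and 3 lower as deposited (median 1.93, or 0.95 after rescaling), and per locus 10 of 17 were higher as deposited, 4 on both scales and 1 lower. UGT84A1, a glucosyltransferase of phenolic acids of the family that joins gallate to glucose in oak and pomegranate, had 3108 and 2339 in code 0 and 217, 134 and 163 in code L (4.00, SE 0.51, adjusted p = 4.14e-05). All 7 of its kept contigs were higher on both scales, by 3.11 to 6.20 as deposited. UGT84A2, of the same family, had 856 and 656 against 29.8, 27.7 and 6.02 (5.35, SE 1.18, adjusted p = 0.00163). Values of UGT84A1 were 289 to 392 in code 1 and 529 to 2276 in code 2.

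DHS1, the first enzyme of the shikimate pathway, had 1241 and 789 in code 0 and 95.4, 83.7 and 54.8 in code L (3.69, SE 1.01, adjusted p = 0.006). MEE32, the enzyme that makes and then reduces dehydroshikimate, the precursor of gallate, had 951 and 767 against 175, 136 and 115 (2.60, SE 0.52, adjusted p = 8.54e-04). Both calls were lost after rescaling, where the differences were 2.61 (adjusted p = 0.0735) and 1.53 (adjusted p = 0.0513). The DHS1 contig Mm247 alone was called on both scales, at 176 and 86.4 against 0.598, 0.818 and 0 (6.44, SE 1.58). Code 2 was wide for DHS1, at 46.5 to 1669. ADT3, of the branch to phenylalanine, rose by 4.2 (SE 0.58) and was called on both scales. Chorismate synthase, CS, was higher by 1.79 (SE 0.22), DHQS, the second step, by 1.24 (SE 0.27) and chorismate mutase, CM1, by 1.87 (SE 0.30) as deposited, and all 3 calls were lost after rescaling.

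Phenylpropanoid and laccase contigs were 17 higher and 10 lower of 44 as deposited (median 0.33), and 9 and 14 after rescaling (median -0.37). The laccase LAC14 had 678 and 487 in code 0 and 49.9, 34.9 and 6.09 in code L (4.61, SE 1.01, adjusted p = 0.0016), and PAL1, the enzyme that opens the pathway from phenylalanine, had 6.25 and 7.18 against 143, 112 and 45.8 (-3.57, SE 0.44). Flavonoid contigs were 15 higher and 7 lower of 31 as deposited, and 9 and 9 after rescaling. The flavonoid share higher as deposited, 48.4%, was near the 49.4% of all kept contigs. Within that list, TT19, a transferase that helps carry anthocyanins to the vacuole, had 96.6 and 154 against 1.06, 0.163 and 0.157 (6.45, SE 0.44), and FLS1, the flavonol synthase, had 2.66 and 2.79 against 207, 199 and 90.6 (-5.39, SE 0.52).

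Iron homeostasis genes did not move together. Of 71 contigs, 22 were higher and 14 lower as deposited (median 0.10), and 10 and 25 after rescaling (median -0.40). NAS1, the enzyme that makes the iron chelator nicotianamine, had 191 and 207 in code 0 and 0.28, 0.09 and 0.106 in code L (7.43, SE 0.50, adjusted p = 7.52e-07), beside 5.18 to 6.05 in code 1 and 4.89 to 28.3 in code 2. NEET, an iron-sulfur protein, had 15.1 and 13.4 against 316, 466 and 343 (-4.61, SE 0.27, adjusted p = 2.85e-07).

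Ferritin, which stores iron in plastids, gave no call at FER1. FER1 had 455 and 444 in code 0 and 402, 301 and 480.3 in code L (0.21, SE 0.35, adjusted p = 0.589), and none of its 7 kept contigs was called. Its levels were 3314 to 4314 in code 1 and 1634 to 3726 in code 2. FER4 contigs moved apart, Mm49786 at 112 and 95 against 0, 0 and 4.17 and Mm8545 at 17.7 and 20.9 against 225, 187 and 251, and the FER4 sum was not called as deposited (-0.85, SE 0.41) but was called lower after rescaling (-1.93, adjusted p = 0.00272).

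Peroxidases and other enzymes of reactive oxygen followed different genes in each code. CAT2, the leaf catalase that clears hydrogen peroxide from photorespiration, had 6.52 and 15.6 in code 0 and 1327, 728 and 1351 in code L (-6.61, SE 0.59, adjusted p = 4.55e-06). CAT1 contigs split, with Mm317 at 1.85 and 2.51 against 267, 178 and 356 (-6.35, SE 1.45) and Mm163 at 2278 and 1670.0 against 488, 261 and 466 (2.32, SE 0.49). GLP3, a germin-like protein, had 576 and 1008 against 2829, 3518 and 2939 (-2.01, SE 0.63, adjusted p = 0.013), and codes 1 and 2 were far lower, at 8.51 to 16.8 and 13.7 to 90.4. Over the superoxide and hydrogen peroxide list, 9 of 32 contigs were higher and 11 lower as deposited (median -0.11), and 2 and 17 after rescaling (median -1.15). No locus of that list was higher and 4 of 11 were lower on both scales.

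Class III peroxidases, which act in the cell wall, had 8 of 19 contigs higher and 1 lower as deposited, and 6 and 4 after rescaling. Their share higher as deposited was 42.1%, beside 49.4% of all kept contigs. PRX42 had 1868 and 2080.2 in code 0 and 328, 477 and 681 in code L (2.05, SE 0.32), and the sum's call was lost after rescaling (0.98). Its contig Mm562 alone had 1603 and 1794 against 31.2, 22.7 and 43.7 (5.71, SE 0.38). PRX17 rose by 3.71 (SE 0.36) from values of 9.4, 9.2 and 12.4 in code L.

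Jasmonate genes were higher at 41 of 82 contigs and lower at 13 as deposited (median 1.39, or 0.42 after rescaling), and 7 of 25 loci were higher and 1 lower on both scales. Over all kept contigs, 49.4% were higher and 13.3% lower as deposited, so the deposited shares of the jasmonate list (50% and 15.9%) lay near the background. JAZ10, a repressor that jasmonate itself induces, had 581 and 163 in code 0 and 6.93, 3.15 and 1 in code L (6.26, SE 0.59, adjusted p = 5.90e-06). The related repressors JAZ1 and JAZ2 rose by 2.89 (SE 0.28) and 3.87 (SE 0.35). Among enzymes of jasmonate synthesis, LOX2 had 1886 and 876 against 167, 98.2 and 264 (2.97, SE 0.50), OPR3 rose by 3.24 (SE 0.27) and AOC3 by 2.91 (SE 0.32), while AOS fell by 1.19 (SE 0.39). The call of the AOS contig was lost without 0-B (limma, adjusted p = 0.226) and without L-C (adjusted p = 0.0532), and with only codes 0 and L in the fit (adjusted p = 0.0781). In JAZ10, MYB21 and LOX2 the value of 0-A was more than that of 0-B.

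Other hormone and timing lists held calls in both directions. As deposited, 45.5% of auxin, 46.8% of cytokinin and gibberellin and 45.8% of clock contigs were higher, near the 49.4% of all kept contigs. After rescaling, 18.2% of all kept contigs were higher and 20.9% lower. Auxin contigs were 45 higher and 16 lower of 99 as deposited, and 22 and 22 after rescaling. Cytokinin and gibberellin contigs were 22 higher and 3 lower of 47 as deposited, and 17 and 4 after rescaling. Within them, GASA4, a small peptide induced by gibberellin, had 1550.4 and 1871 in code 0 and 77.9, 165 and 148 in code L (3.77, SE 0.85), and GAI, a DELLA repressor of gibberellin response, rose by 2.87 (SE 0.29). Clock contigs were 27 higher and 3 lower of 59 as deposited, and 12 and 11 after rescaling, with CDF1, a repressor of flowering, up by 3.77 (SE 0.38) and COL2, a CONSTANS-like gene, lower (-2.66, SE 0.71) with its call lost without 0-A (limma, adjusted p = 0.0518).

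Nitrogen genes split by compartment in the glutamine synthetases. The plastid enzyme GLN2 had 125 and 135 in code 0 and 1130.3, 865 and 1509 in code L (-3.12, SE 0.49, adjusted p = 1.93e-04). The cytosolic enzyme GLN1;3 rose by 2.49 (SE 0.23), and GLN1;1 was higher by 2.29 (SE 0.67) as deposited with its call lost after rescaling. AMT1;2, an ammonium importer, had 0.717 and 0.877 against 38.4, 34.3 and 35.6 (-4.37, SE 0.32), and NRT1.5, a nitrate transporter, rose by 2.84 (SE 0.38). Over the list, 19 of 49 contigs were higher and 17 lower as deposited (median 0.12), and 10 and 19 after rescaling (median -0.061).

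Senescence contigs were 17 higher and 12 lower of 37 as deposited, and 8 and 15 after rescaling. The deposited shares were 45.9% higher and 32.4% lower, beside 49.4% and 13.3% of all kept contigs. Of the 17 higher as deposited, 14 came from 1 locus. That locus was EIN3, the master regulator of ethylene response, at 929.5 and 873 in code 0 and 101, 83.9 and 184 in code L (2.95, SE 0.36). Per locus, 6 of 14 were lower and 1 higher on both scales. SEN1, a gene that darkness and sugar shortage induce in Arabidopsis, had 22.5 and 47 against 148, 147 and 637 (-2.85, SE 0.71), with L-C far above L-A and L-B. WRKY70, a regulator of defence and senescence, fell by 2.70 (SE 0.40) and SAG21, a senescence-associated stress gene, by 1.87 (SE 0.45). Without 0-A, the calls of the SEN1 and SAG21 contigs were lost (limma, adjusted p = 0.0622 and 0.0965).

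Defence proteins were lower at all 8 loci on both scales. Of 21 contigs from 7 loci, 14 were lower and none higher as deposited (median -2.24, or -2.94 after rescaling). BG3, a glucanase, had 7.46 and 8.1 in code 0 and 489, 154 and 181 in code L (-4.77, SE 0.44, adjusted p = 5.26e-06), and CHIB, a basic chitinase, had 58.1 and 57.1 against 857, 304 and 579 (-3.19, SE 0.98). PR4, a chitin-binding protein, had 18.2 and 34.8 against 238, 303 and 262 (-3.35, SE 0.75). Code 0 stood apart from all other codes, with sums of 264 and 209 there. Sums ran from 1410 to 2397 in code 1, from 1204 to 3918 in code 2 and from 982 to 2101 in code L.

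Heat shock contigs were 27 higher and 3 lower of 58 as deposited, and 9 and 6 after rescaling. The share higher was 46.6% as deposited, near the 49.4% of all contigs. Per locus, 7 of 13 heat shock loci were higher and 1 lower as deposited, and 2 and 1 on both scales. HSP21, the small heat shock protein of plastids, had 0.622 and 0.46 in code 0 and 16.6, 18.8 and 78.9 in code L (-4.30, SE 0.57), with L-C the highest. Proton pump and aquaporin contigs were 48 higher and 5 lower of 81 as deposited (median 1.65), and 29 and 13 after rescaling (median 0.69). Their deposited shares were 59.3% higher and 6.2% lower, beside 49.4% and 13.3% of all kept contigs. After rescaling, 18.2% of all kept contigs were higher and 20.9% lower. The vacuolar aquaporins TIP4;1 and TIP2;1 had 271 and 292 against 13.9, 9.03 and 14.4 (4.42, SE 0.46) and 1486 and 958 against 109.8, 101 and 104 (3.49, SE 0.74). AHA2, a proton pump of the plasma membrane, was higher by 1.62 (SE 0.42) as deposited, and the call was lost after rescaling.

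**Figure D5:**
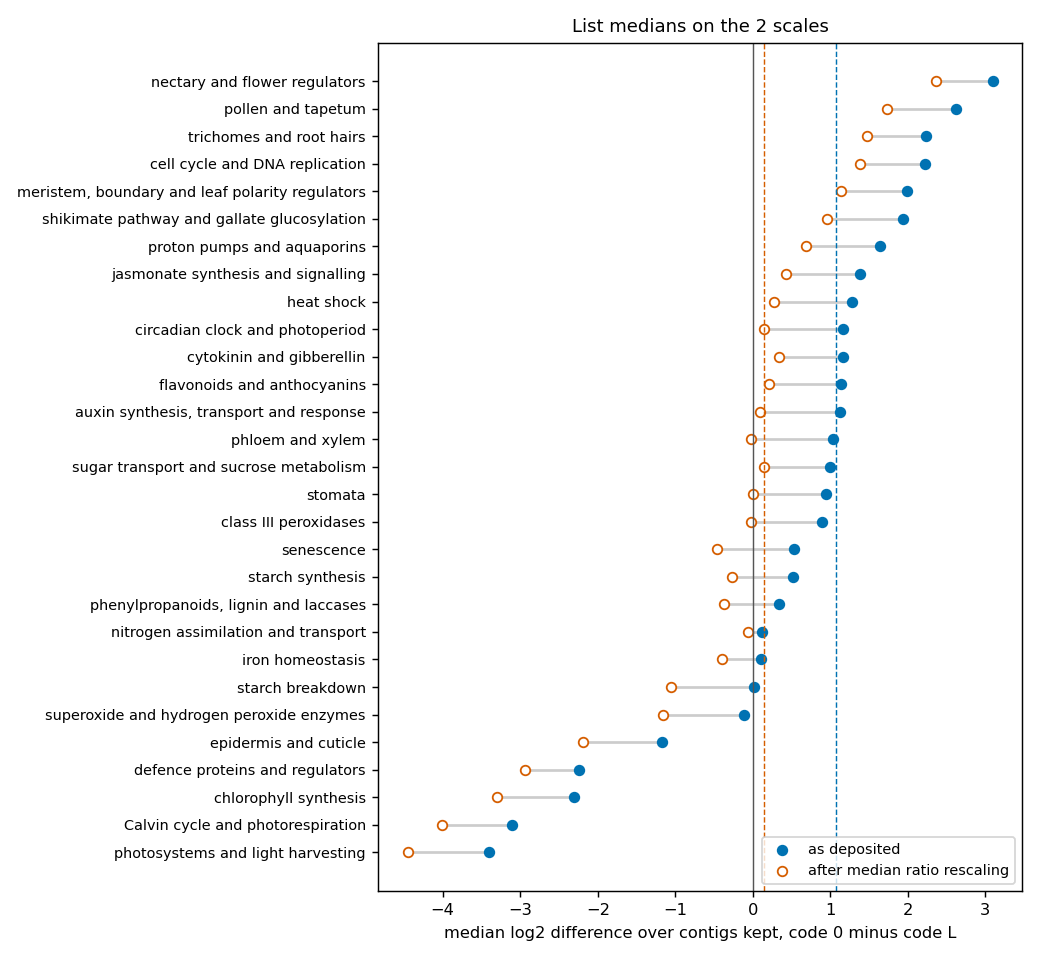
Median log2 difference, code 0 minus code L, of the kept contigs of 29 gene lists, as deposited (filled blue points) and after median ratio rescaling (open orange points), with the medians of all kept contigs (1.08 and 0.14) as dashed lines. Photosystem, Calvin cycle, chlorophyll, defence and cuticle medians are below 0 and regulator, cell cycle and shikimate medians above 0 on both scales, while starch and iron medians change sign.

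Markers of other cell types differed between the codes beside these groups, and their part in the results was not tested. Cuticle and epidermis genes were lower at 15 of 29 contigs and higher at 3 as deposited (median -1.17, or -2.19 after rescaling), and their sum ran from 405 to 424 in code 0 and from 853 to 1010 in code L. CER6, which lengthens wax fatty acids, had 48.9 and 39.1 in code 0 and 204, 172 and 223 in code L (-2.16, SE 0.42). The cuticle regulators MYB16 and MYB106 fell by 2.64 (SE 0.39) and 2.52 (SE 0.48).

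Stomatal genes had sums of 266 to 337 in the code 0 libraries and 256 to 467 in code L, with members on both sides. FAMA, which completes guard cell formation, had 34.6 and 75.9 in code 0 and 1.24, 1.9 and 1.42 in code L (4.39, SE 0.40, adjusted p = 5.01e-06), and code 1 was at 0 to 0.37. TMM, a receptor that spaces stomata, had 0.428 and 1.21 against 24.9, 8 and 14.3 (-3.11, SE 0.59), and EPFL9, the peptide that promotes stomata, had 0.525 and 0.26 against 13.1, 29 and 24.6 (-4.00, SE 0.40). PHOT2, a blue light receptor, fell by 4.03 (SE 0.27).

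Pollen and tapetum markers had the sums already given beside the flower regulators. Of 27 marker loci, 13 had a contig, and 2 of these, LAP6 and TPD1, were at 0 in both code 0 libraries. TIP1;3, an aquaporin of pollen in Arabidopsis, made up most of the code 0 sum, at 369 and 376 against 21.6, 12.6 and 8.99 (4.69, SE 0.80), and MS2, an enzyme of the pollen wall, had 46.3 and 46.7 against 2.03, 2.79 and 3.33 (3.69, SE 0.42). Trichome and root hair markers had 3 of 6 contigs higher (50%) and 1 lower on each scale. Over all kept contigs, 49.4% were higher and 13.3% lower as deposited, and 18.2% and 20.9% after rescaling. Of 3 trichome and root hair loci, 1 was called higher, with a locus median of 0.45 (-0.59 after rescaling). GL1, the MYB regulator that starts leaf hairs, had 90.1 and 124 against 2.75, 5.58 and 2.25 (4.63, SE 0.57). TRY, a repressor of leaf hairs, had 27.9 and 63.3 against 44, 51.1 and 76.5, overlapped and was not called as deposited (-0.39, SE 0.44), and was called lower after rescaling (-1.45, adjusted p = 0.00961). Of the phloem and xylem markers, 12 of 16 loci had a contig, and 3 of 7 tested loci were higher and 2 lower as deposited (median 0.53), against 1 higher and 2 lower on both scales (median -0.46 after rescaling).

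Within a locus, contigs did not always share a direction. Of 5627 loci with at least 2 kept contigs, 340 had contigs called in both directions on both scales, 1846 had calls only higher and 1065 only lower. Some contigs were listed at 0 throughout a code. Of these, 72 were at 0 in all code L libraries and at 20 or more in both code 0 libraries, from 66 loci, of which 55 were higher as a sum. The reverse held for 35 contigs from 34 loci, of which 26 were lower as a sum.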

How the data were processed

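The RNAqueous Micro kit gave the RNA, the TURBO DNA-free kit removed DNA, and a NovaSeq instrument read both ends, per the labels' protocols. Reads were processed with kallisto 0.46.1, per the submitters' processing notes. The deposited values are a normalised signal, which the authors call normalised read counts in the file headers. The sources used here do not say how the authors scaled libraries, assembled contigs or selected those deposited, so shares of contigs are shares of this table. The values are not whole, and no interval or floor that needs the depth is given.

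Of 68651 contigs, 67753 had an Arabidopsis locus (16092 distinct loci). Contigs at 10 or more in at least 2 libraries (26053) entered the test as log2(value + 1), and limma 3.58.1 was run in R 4.3.3. Its fit held all 11 libraries, 1 mean per code and the empirical Bayes trend, with two-sided tests, Benjamini-Hochberg adjustment over all kept contigs and 7 residual degrees of freedom. The scale of log2(value + 1) understates the change of low contigs. The procedure was also run on simulated data without a shift of scale between the codes, so its outcome does not bear on the scaling. There, 50% of contigs changed by 1.5 on the log2 scale were called, 66% at 2, 86% at 3 and 94% at 4. Tables and figures used Python 3.11.15, pandas 2.3.3 and matplotlib 3.10.9.

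The 29 locus lists and 4 lists by annotation held 853 loci in the former, 665 of them listed and 501 kept. The members and lists were chosen with earlier results of these data known. The rule for named contigs took, per list and direction, the 3 called contigs with the largest difference, no overlap and a mean of at least 20 in the higher code, and the contig with the highest mean. It added the 10 furthest in each direction over the whole table with a mean of at least 100. All contigs of CRC, SWEET9, UGT84A1, UGT84A2, FER1 and the loci whose symbol begins with LHCB1 were added as counts and ranges. Other loci named by their sums were chosen after their values were seen. Alternatives were other pseudocounts, scalings, filters, groupings, a replicate block, library weights, locus sums and each library left out.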

Additional observations from a re-analysis of the deposited data

How the results depend on the processing

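The counts of calls (in all, higher and lower) were 16353, 12875 and 3478 as reported. A pseudocount of 10 gave 8757, 6332 and 2425, no filter on low values gave 29206, 22990 and 6216, and a filter of 50 gave 4903, 3628 and 1275, the last from fewer contigs tested. Median ratio rescaling gave 10202, 4752 and 5450, of which 8225 were among the reported calls. Summing per locus gave 7436, 5838 and 1598, from fewer features tested. Of the alternatives added after seeing the data, median ratio rescaling of codes 0 and L alone gave 9842, 4674 and 5168, and locus sums after rescaling gave 4207, 1427 and 2780. Leaving out 1 library at a time gave 13407 to 16640 in all, 10376 to 13589 higher and 2708 to 3495 lower. The other settings moved these counts by less than 1.5 times, among them equal totals (13525 in all), only codes 0 and L in the fit (16057), library weights (17023) and groups as filed (15844). Letters are shared by 2 pairs of libraries (A and B), whose deviations correlated at 0.143 and 0.14, and are only names here; a replicate block gave 16707 calls. Of 182 named contigs, 179 were called, a count largely set by the rule, which picked called contigs with large differences. On both scales 162 were called, and 128 kept their call under every setting that kept the contig. Grouping as filed lost 24 calls, among them contigs like DHS1 (limma, adjusted p = 0.0953), UGT84A2 (0.0895), FAMA (0.0708), GL1 (0.0907), GASA4 (0.239), LOX2 (0.194) and LHCB1.3 (0.0614). Signs reversed for Mm24375 (CYCD1;1, not called), to 0.24 without 0-A, 0.012 without L-C and 0.022 with the replicate block, and leaving out 1 library at a time gave -0.34 to 0.24. They also reversed for Mm223 (FER1, not called), to -0.48 after median ratio rescaling and -0.41 with codes 0 and L alone, and after rescaling for Mm12783 (CESA7), to -0.025, and for Mm7710 (AT4G00810), to -0.063. Of 33 list medians, 10 changed sign after median ratio rescaling. Causes of these shifts were not tested. The depth in reads is unknown and code 0 has only 2 libraries.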

Other observations

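Annotation groups with at least 20 kept contigs, picked after their values were seen, included some outside the lists. Over all kept contigs, 49.4% were higher and 13.3% lower as deposited, and 18.2% and 20.9% after rescaling. Contigs of 1 locus are not separate genes. The coatomer alpha subunit is a coat protein of vesicles between Golgi and endoplasmic reticulum. Its 24 contigs, from 2 loci, were all higher in code 0 as deposited (median 2.04), and 14 were higher after median ratio rescaling. Clathrin heavy chain, the coat protein of endocytic vesicles, had 25 of 26 contigs (2 loci) higher as deposited and 12 after rescaling. The HCO3- transporter family includes boron exporters in Arabidopsis. Its contigs, from 4 loci, were higher at 18 of 26 and lower at 2 as deposited (median 3.08). After rescaling, 17 were higher and 2 lower. The methionine synthase type (cobalamin-independent synthase, 1 locus) had 30 of 31 contigs higher and 1 lower as deposited, and 22 and 1 after rescaling.

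On the lower side, pentatricopeptide repeat proteins, which process organelle RNA, had 7 of 36 contigs higher and 14 lower as deposited (median -0.57), and 2 and 20 after rescaling. Proteins of the NPH3 type, which act in responses to blue light, had 6 of 20 higher and 9 lower as deposited (median -0.81), and 1 and 12 after rescaling.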
